A study of Mus musculus with 9 samples.

Results

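MHC class II genes and the RFX regulators that switch them on were followed through sorted pancreatic ductal adenocarcinoma (PDAC) cells of mice. The group was fixed by name and holds 10 genes of the 47643 in the files, namely the classical class II chains H2-Aa, H2-Ab1 and H2-Eb1, the invariant chain Cd74, the peptide editor chains H2-DMa and H2-DMb1, the coactivator Ciita, and the RFX complex genes Rfx5, Rfxap and Rfxank. Each was found by its Ensembl identifier, and all 10 passed the filter on low counts, as did 14105 genes in all.

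RNA was measured by 3′ end sequencing in 9 libraries. The 6 KPF libraries (4269, 4435, 4504h, 4504s, 4515 and 4601) held GFP+Yap+ cells of mice with Trp53 frt/+, Pdx-Flp and an R26 dual reporter with FSF-CreER, and the 3 KPYYF libraries (4449, 4891 and 4938) held Tm+Yap− cells of mice with the same alleles plus Yap flox/flox. Flp under the Pdx promoter removed a Trp53 allele and turned on EGFP in the pancreas, and tamoxifen, given to both groups, let CreER delete floxed Yap and turn the reporter from EGFP to tdTomato (Tm). The study describes the Tm+Yap− cells as coming from nodules that relapsed after Yap loss. Genotype, Yap status, reporter color and relapse state thus changed together and cannot be told apart. The mice were of both sexes, and no age was given for a single library. KPF libraries 4504h and 4504s share a mouse number, so their spread may be within an animal.

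Class II molecules are pairs of alpha and beta chains that present peptides from endosomes to CD4 T cells. The invariant chain Cd74 holds the groove closed until H2-DM exchanges its remnant for a peptide. Dendritic cells and B cells carry them constitutively, macrophages after activation, and many epithelial and tumor cells only after interferon gamma. The RFX complex, built of Rfx5, Rfxap and Rfxank, sits on the X box of class II promoters beside CREB and NF-Y, and it recruits Ciita, the non-DNA-binding master coactivator whose level sets class II transcription. The RFX subunits themselves are made in most cell types.

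The deleted gene was low where the labels placed the deletion. Yap1 stood between 41.8 and 151 CPM (counts scaled to a common library size) in KPF and between 0.712 and 7.12 CPM in KPYYF libraries, with no overlap (edgeR quasi-likelihood test, log2 fold change -4.79, standard error, SE, 0.72, Benjamini-Hochberg adjusted p = 0.0159). The 8 PDAC epithelial markers summed to between 3507 and 9161 CPM in KPF and to between 622 and 1879 CPM in KPYYF libraries, and Krt18, Cdh1 and Muc1 were lower in KPYYF libraries at an adjusted p under 0.05 (edgeR). Reads on genes numbered 8264587 to 9635514 per KPF and 8116539 to 8725132 per KPYYF library, so that 3 counts, the limit that a count of 0 allows, equaled 0.292 to 0.437 CPM. KPF library 4601 stood apart before any comparison. It was the highest of all 9 libraries in each of 12 pan-leukocyte and 12 macrophage and monocyte markers, and group differences that rest on it are given with and without it.

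Promoter windows of 250 bases before to 50 bases after the RefSeq start (GRCm38.p6) were searched for 6 of the 10 members. These members were H2-Aa, H2-Eb1, H2-DMa, H2-DMb1, Rfx5 and Rfxank. The letters AGNNACNGA, the core of the RFX X box, CCAAT, the box of NF-Y, and TTCNNNGAA, a STAT site, were searched on both strands. The STAT letters were in 0 of the 7 windows of these members and in 8.30% of all windows, a share too low for so few windows to differ from. Of all 32851 windows, 17.7% held the X box letters, 37.4% the CCAAT letters and 6.54% both. H2-Eb1 and H2-DMb1 held X box and CCAAT letters, and H2-Aa, Rfx5, Rfxank and the second of the H2-DMa windows held CCAAT but no X box letters. In H2-Eb1 an X box match lay 92 to 84 bases before the start, with a reverse CCAAT 24 bases and a forward CCAAT 48 bases further on. In H2-DMb1 an X box match lay 95 to 87 bases before the start with a reverse CCAAT 25 bases further on. H2-DMb1 also held a reverse X box match 163 to 155 bases before the start. A match is a description of letters and no proof of binding. A window without these exact letters may still hold a variant of the X box. Cd74 was left out of the search, and H2-Ab1, Ciita and Rfxap had no window, so their promoters were not tested. The 4 windows shown are those of Rfx5 and of 3 target genes that were highest in KPF library 4601. Each runs 5′ to 3′ on its gene's strand, with matches in capitals.
H2-Eb1 (chr17:34305617-34305916, plus strand): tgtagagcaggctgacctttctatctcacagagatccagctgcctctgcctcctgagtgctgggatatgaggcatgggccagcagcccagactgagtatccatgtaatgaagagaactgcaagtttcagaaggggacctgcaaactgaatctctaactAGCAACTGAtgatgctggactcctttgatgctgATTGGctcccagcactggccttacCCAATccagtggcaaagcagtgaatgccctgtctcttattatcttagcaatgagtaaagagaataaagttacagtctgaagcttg
H2-DMb1 (chr17:34152941-34153240, plus strand): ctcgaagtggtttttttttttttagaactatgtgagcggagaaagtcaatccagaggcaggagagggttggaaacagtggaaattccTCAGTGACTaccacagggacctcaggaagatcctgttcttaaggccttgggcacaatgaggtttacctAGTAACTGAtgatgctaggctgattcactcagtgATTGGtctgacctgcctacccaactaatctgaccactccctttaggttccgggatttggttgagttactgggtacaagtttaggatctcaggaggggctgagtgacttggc
H2-Aa (chr17:34287774-34288073, minus strand): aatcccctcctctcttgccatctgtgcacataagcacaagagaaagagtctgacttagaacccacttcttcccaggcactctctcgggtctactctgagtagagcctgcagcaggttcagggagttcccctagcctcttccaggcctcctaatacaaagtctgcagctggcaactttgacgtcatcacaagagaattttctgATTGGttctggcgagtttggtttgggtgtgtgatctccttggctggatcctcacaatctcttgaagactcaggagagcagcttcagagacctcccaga
Rfx5 (chr3:94953858-94954157, plus strand): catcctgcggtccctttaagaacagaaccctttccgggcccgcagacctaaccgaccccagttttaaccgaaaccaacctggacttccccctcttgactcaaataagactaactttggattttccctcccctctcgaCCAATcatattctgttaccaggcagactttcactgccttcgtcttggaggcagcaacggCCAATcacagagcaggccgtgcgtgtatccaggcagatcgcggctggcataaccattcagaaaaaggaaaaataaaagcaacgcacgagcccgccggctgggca

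The classical chains were detected in all 9 libraries and were far higher in KPF library 4601 than in the rest. H2-Aa (ENSMUSG00000036594, chr17:34282744-34287823, minus strand), the alpha chain of I-A, ran from 26.5 to 1601 CPM in KPF libraries with a median of 61.4 CPM. In KPYYF libraries 4449, 4891 and 4938 it stood at 167, 36.3 and 65.3 CPM. The groups overlapped, and the highest KPF library other than 4601 stood at 71.9 CPM. The log2 fold change of KPYYF against KPF was -1.79 (SE 1.58, adjusted p = 0.650, edgeR) with all 9 libraries and 0.80 (SE 0.47, adjusted p = 0.459, edgeR) without 4601, so a single library set its sign.

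H2-Ab1 (ENSMUSG00000073421, chr17:34257689-34269419, plus strand), the I-A beta chain, ran from 19.7 to 856 CPM in KPF libraries with a median of 42.7 CPM and stood at 83.2, 15.4 and 27.9 CPM in the 3 KPYYF libraries. Its log2 fold change was -2.06 (SE 1.43, adjusted p = 0.541, edgeR), and 0.09 (SE 0.52) without 4601. H2-Eb1 (ENSMUSG00000060586, chr17:34305867-34316674, plus strand), the beta chain of I-E, ran from 13.1 to 492 CPM with a median of 27.7 CPM and stood at 54.3, 12.2 and 28.5 CPM. It had a log2 fold change of -1.71 (SE 1.36, adjusted p = 0.599, edgeR), and of 0.27 (SE 0.58) without 4601. In all 3 chains KPYYF library 4449 was the highest of its group and exceeded each KPF library except 4601. Among the other KPF libraries, 4504s was the highest in all 3.

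The genes that load class II molecules followed the same libraries in KPF. Cd74 (ENSMUSG00000024610, chr18:60803848-60812652, plus strand) ran from 12.4 to 739 CPM in KPF libraries with a median of 27.3 CPM, and stood at 55.1, 13.7 and 26.0 CPM in KPYYF libraries 4449, 4891 and 4938. Its log2 fold change was -2.19 (SE 1.57, adjusted p = 0.557, edgeR), and 0.33 (SE 0.54) without 4601. H2-DMa (ENSMUSG00000037649, chr17:34119541-34139101, plus strand), the alpha chain of the peptide editor, ran from 4.71 to 122 CPM with a median of 9.39 CPM and stood at 3.44, 6.89 and 2.85 CPM. It had the lowest unadjusted p of the 6 class II genes, 0.0485, with a log2 fold change of -2.62 (SE 1.18, adjusted p = 0.305, edgeR), and of -0.86 (SE 0.84, adjusted p = 0.699) without 4601. Its groups overlapped, and 4449 was not the highest KPYYF library for it. Its annotated span also overlaps the opposite-strand gene Brd2, though not at its 3′ end.

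H2-DMb1 (ENSMUSG00000079547, chr17:34153072-34160230, plus strand), the editor's beta chain, ran from 9.14 to 566 CPM in KPF libraries with a median of 11.5 CPM and stood at 14.8, 10.2 and 19.0 CPM in KPYYF libraries. Its log2 fold change was -2.88 (SE 1.71, adjusted p = 0.464, edgeR), and -0.17 (SE 0.64) without 4601. H2-DMb1 has a near-identical neighbor, H2-DMb2, and the split of reads between them is uncertain. For the 6 class II genes together, library 4601 gave 68.5% (H2-DMa) to 83.4% (H2-DMb1) of all KPF counts, and its CPM was 9.06 to 13.5 times that of the next highest library. All 6 log2 fold changes were below 0 with 4601, with a median of -2.12 against -0.07 over all genes tested. Without it, 4 of the 6 were above 0 and the median was 0.18, against -0.01 over all genes.

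**Figure D1:**
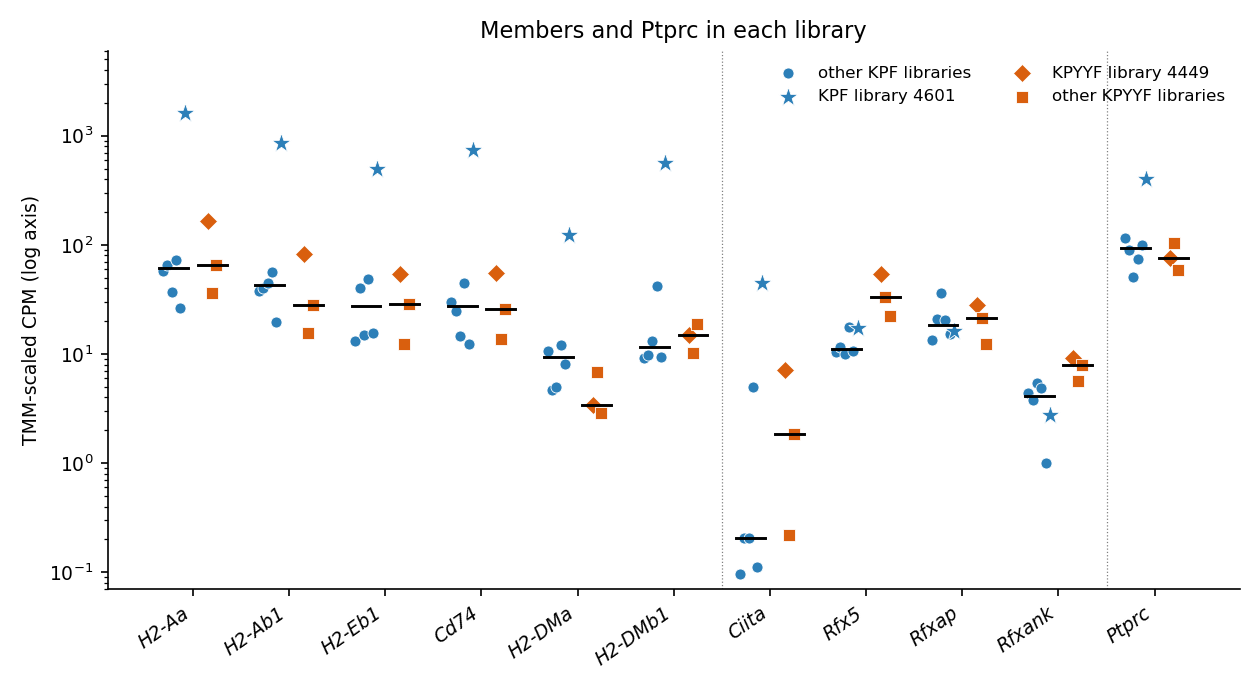
CPM of each member and of Ptprc in each library on a log axis, with KPF libraries in blue, KPYYF libraries in orange and short lines at group medians. KPF library 4601 (star) lies between 122 and 1601 CPM for the 6 class II genes, and the KPYYF points of Rfx5 and Rfxank lie above all KPF points.

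Ciita (ENSMUSG00000022504, chr16:10480059-10528418, plus strand) was near the detection limit in 5 libraries. Its raw counts were 1, 2, 2, 44, 1 and 306 in KPF libraries 4269, 4435, 4504h, 4504s, 4515 and 4601, and 60, 2 and 17 in KPYYF libraries 4449, 4891 and 4938. The other 4 libraries thus held nearly all of its reads, and in KPF these were the libraries with the most class II RNA, 4601 and 4504s. In KPYYF the order was also that of H2-Aa, H2-Ab1, H2-Eb1 and Cd74, with 4449 first and 4891 last. The log2 fold change was -1.44 (SE 1.97, adjusted p = 0.788, edgeR), and 1.42 (SE 1.76, adjusted p = 0.780) without 4601. The 3′ end of Ciita lies under the opposite-strand gene Dexi, which had 159 to 416 counts per library, and the strand setting of the counting was not given in the sources used here. Dexi did not follow the Ciita counts, with 322 counts in 4601 and 416 in 4891.

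Rfx5, the DNA-binding subunit of the RFX complex, had the lowest p of the 10 members. Rfx5 (ENSMUSG00000005774, chr3:94954075-94961561, plus strand) ran from 9.91 to 17.8 CPM in KPF libraries with a median of 11.1 CPM, and stood at 54.3, 33.3 and 22.5 CPM in KPYYF libraries 4449, 4891 and 4938. The groups did not overlap. Its log2 fold change was 1.51 (SE 0.42, unadjusted p = 0.00351, adjusted p = 0.110, edgeR), which missed the threshold of 0.05 over all genes, and a two-sided exact permutation test of mean log2 CPM gave p = 0.0119, the smallest that 6 against 3 libraries allow. Without library 4601 the log2 fold change was 1.62 (SE 0.45, adjusted p = 0.109, edgeR). The DESeq2 Wald test gave an adjusted p of 0.0184, and that test called 1.91% of all genes higher, against 0.305% in edgeR. Over all alternatives the adjusted p ran from 0.0184 to 0.250. The study picked Rfx5 among transcription factors that differed in these libraries, so its direction here is not independent evidence. The antisense gene B230398E01Rik covers its 3′ end and had 72 counts in KPYYF library 4891 and 1 and 0 in 4449 and 4938, against 0 to 31 in KPF libraries, and without a stated strand setting the reads of both genes cannot be told apart.

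The other RFX subunits differed less. Rfxank (ENSMUSG00000036120, chr8:70130794-70139154, minus strand), the ankyrin-repeat subunit, ran from 0.996 to 5.42 CPM in KPF libraries with a median of 4.08 CPM and stood at 9.26, 5.69 and 8.0 CPM in KPYYF libraries. The KPYYF libraries were again all above the KPF libraries, but the gap between 5.42 and 5.69 CPM was small, and the log2 fold change was 1.04 (SE 0.85, adjusted p = 0.599, edgeR). Its exact permutation p was 0.0476 with all 9 libraries and 0.0714 without 4601. Rfxap (ENSMUSG00000036615, chr3:54803115-54807791, minus strand), the RFX-associated protein, ran from 13.5 to 35.9 CPM in KPF libraries with a median of 18.4 CPM and stood at 28.3, 21.5 and 12.3 CPM in KPYYF libraries. The groups overlapped throughout, and its log2 fold change was 0.02 (SE 0.47, adjusted p = 0.990, edgeR).

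No member passed an adjusted p of 0.05 in edgeR's quasi-likelihood test. Of all genes tested, 0.305% were called higher and 0.794% lower in KPYYF libraries, so 0 of 10 members is not apart from the background. At an unadjusted p under 0.05, 1 member was higher (Rfx5) and 1 lower (H2-DMa), and both also passed the rule of the study's methods, a p under 0.05 before adjustment with over 2-fold change. By that rule 4.2% of all genes were higher and 9.2% lower. Without 4601 the rule left 1 member higher and 0 lower, and the share of all genes passing it there was not worked out. At the adjusted threshold 0 members passed without 4601, where 0.239% of genes were called higher and 0.841% lower. DESeq2 called 1 member higher, Rfx5, where it called 1.91% of all genes higher and 6.58% lower, and it gave no adjusted p for the 6 class II genes and Ciita. In 2 of the 10 members, Rfx5 and Rfxank, every KPYYF library lay above every KPF library, a pattern found in 3.92% of all genes tested.

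**Figure D2:**
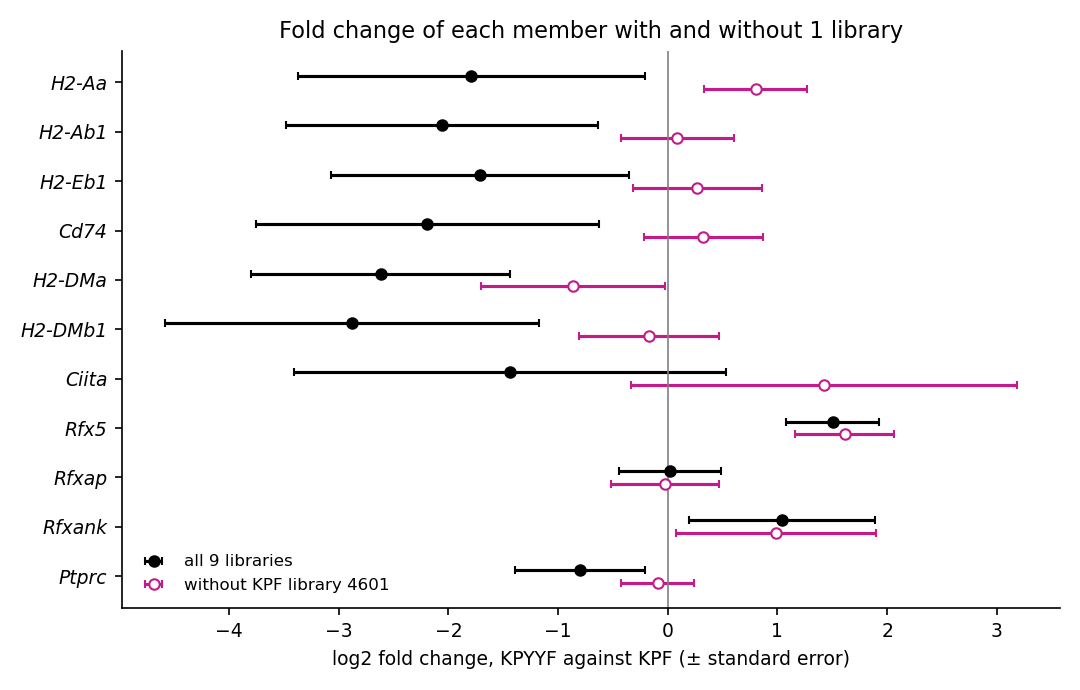
Log2 fold change of KPYYF against KPF with its standard error for each member and Ptprc, with all 9 libraries (filled) and without KPF library 4601 (open). The 6 class II genes lie between -2.88 and -1.71 with all libraries and between -0.86 and 0.80 without 4601, and Rfx5 stays at 1.51 and 1.62.

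Leukocytes were measured by Ptprc, which encodes the pan-leukocyte antigen CD45. Ptprc (ENSMUSG00000026395, chr1:138062861-138175708, minus strand) ran from 50.7 to 399.5 CPM in KPF libraries with a median of 94.4 CPM, and stood at 75.6, 103 and 59.3 CPM in KPYYF libraries. It was thus above the limit of 3 counts in all 9 libraries, and library 4601 had 3.43 times the next highest value. Its log2 fold change was -0.80 (SE 0.59, adjusted p = 0.560, edgeR), and -0.09 (SE 0.34) without 4601. In bulk samples, fewer cells of a type and less RNA per cell cannot be told apart.

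The other leukocyte genes were also highest in 4601, by unequal factors. The 12 pan-leukocyte markers summed to 4216 CPM in 4601, to between 238 and 577 CPM in the other KPF and to between 267 and 290 CPM in the KPYYF libraries. Cd53 was 1.98 times and Coro1a 11.5 times the next highest library. Of these 12 genes, 0 passed the adjusted threshold in edgeR and 3 were lower at an unadjusted p under 0.05, with log2 fold changes from -3.64 (Was, an actin regulator of blood cells) to -0.26 (Cd53, a tetraspanin). Their median was -2.23 with all libraries and -0.70 without 4601. The part of leukocytes in the class II values was not tested.

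Macrophage and B cell genes stood high in the same library. The 12 macrophage and monocyte markers summed to 10311 CPM in 4601, against 360 to 1611 CPM in the other KPF and 390 to 759 CPM in KPYYF libraries, and 4504s held the 1611 CPM. Their log2 fold changes ran from -4.03 (the chemokine receptor Cx3cr1) to -1.09 (Adgre1, which encodes F4/80), with a median of -2.23, and of -0.44 without 4601. None of the 12 passed the adjusted threshold or an unadjusted p of 0.05 in edgeR. The 8 B cell markers summed to 718 CPM in 4601, to between 12.7 and 142 CPM in the other KPF and to between 12.5 and 44.9 CPM in the KPYYF libraries. Of the 7 tested, 0 passed the adjusted threshold, 2 were lower at an unadjusted p under 0.05, and all were highest in 4601. Their log2 fold changes ran from -7.02 (Ms4a1, which encodes CD20) to -1.49 (Iglc2, a lambda light chain gene), with a median of -3.33. Ms4a1 had 0, 0 and 1 counts in KPYYF libraries 4449, 4891 and 4938, so the size of its fold change is uncertain. Without 4601, 5 of the 7 had enough counts to test, Ms4a1 not among them, and their median was -1.49.

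Dendritic and T cell genes were sparse. Of 8 dendritic cell markers, 3 had enough counts to test, and Clec9a and Siglech were at 0 in all 9 libraries. The 8 summed to between 9.85 and 129 CPM in KPF and between 5.14 and 26.6 CPM in KPYYF libraries, the 129 CPM in 4601, and the log2 fold changes ran from -1.85 (Itgax, the integrin CD11c) to -0.92 (Batf3). Without 4601 these were -0.06 and -0.51. The 8 T and NK cell markers summed to at most 74.5 CPM, again in 4601, and only Cd3d, at -1.65, and Trac, at 0.66, could be tested. None of these 5 genes had an unadjusted p under 0.05 in edgeR. Without 4601, Cd3d was no longer tested and Trac was at 1.74.

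Members were then expressed per leukocyte RNA, as the log2 CPM of a member minus that of Ptprc. For the 6 class II genes this ratio differed by between -1.04 (H2-DMa) and 0.24 (H2-Aa) between KPYYF and KPF libraries, with two-sided exact permutation p values of 0.0714 to 0.976. Against the mean of the 12 markers instead, the differences ran from -0.22 (H2-DMa, p = 0.714) to 1.06 (H2-Aa, p = 0.0595, exact permutation test). Without 4601, H2-Aa per 12 markers averaged 2.73 ± 0.79 (SD, n = 3) in KPYYF and 1.45 ± 0.36 (SD, n = 5) in KPF libraries, and the exact permutation p was 0.0179, the smallest that 5 against 3 libraries allow. That was 1 of 40 such comparisons, and those without 4601 were added after seeing the data. Rfx5 per Ptprc was higher in KPYYF by 1.92 on the log2 scale (p = 0.0238, exact permutation test), and by 1.63 without 4601 (p = 0.0179). With Benjamini-Hochberg adjustment over the 10 members, these permutation p values became 0.238 and 0.179.

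Across the 9 libraries, the log2 CPM of H2-Ab1 correlated with the mean of the 12 leukocyte markers with a Pearson r of 0.939 and a Spearman rho of 0.817 (permutation p = 0.00407 and 0.0108, unadjusted, exact over all pairings). This was 1 of 20 such relations, of each member with Ptprc or the 12 markers. The other class II genes and Ciita had r between 0.768 and 0.950 with the markers. Leaving out 4601 and 4504s, the libraries farthest from the marker median, took r to 0.644 for H2-Ab1 and to between -0.223 and 0.474 for the other 6, so the relation rested on those libraries. With Ptprc, r for the same 7 genes ran from 0.527 to 0.914 with all libraries and from -0.767 to 0.617 without 4601 and 4504h. Rfx5, Rfxap and Rfxank had r between -0.216 and -0.102 with the markers over the 9 libraries. Within the 6 KPF libraries alone, Rfx5 had r = 0.783 and rho = 0.714 with the markers (exact permutation p = 0.0444 and 0.136, unadjusted).

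**Figure D3:**
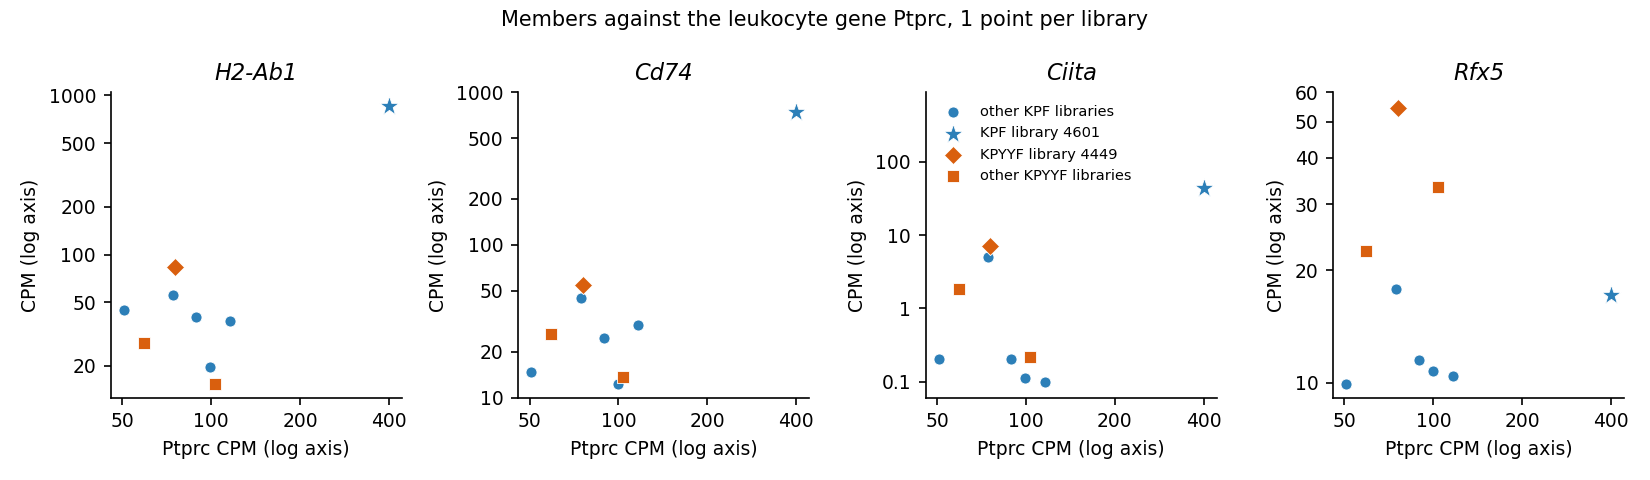
CPM of H2-Ab1, Cd74, Ciita and Rfx5 against CPM of Ptprc, both on log axes, with 1 point per library. KPF library 4601 (star) lies alone at 399.5 CPM of Ptprc, and among the other 8 libraries, with 50.7 to 116 CPM of Ptprc, KPYYF library 4449 (diamond) is the highest for all 4 genes.

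KPYYF library 4449 stood apart in another way. It was the highest of all 9 libraries in 12 of 14 tested interferon gamma-induced genes outside class II, and 4601 was the highest in the other two. The 19 genes of the list summed to 863 CPM in 4449, to 149 and 41.1 CPM in 4891 and 4938, to 337 CPM in 4601 and to between 56.9 and 154 CPM in the other KPF libraries. The same library had the highest sum of class II chains outside 4601, 304 CPM. Its pan-leukocyte markers summed to 267 CPM, close to the 279 and 290 CPM of the other KPYYF libraries. Its macrophage and monocyte markers summed to 759 CPM, against 494 and 390 CPM in 4891 and 4938, and its T and NK cell markers to 24.5 CPM, against 0.437 and 4.71 CPM, with Trac at 20.2 CPM the highest of all 9 libraries. The part of these cells was not tested. KPF library 4504s, with 577 CPM of pan-leukocyte and 1611 CPM of macrophage and monocyte markers, had 176 CPM of class II chains.

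Of the 14 tested genes of that list, 13 had a log2 fold change above 0, with a median of 1.66, 0 passed the adjusted threshold and 2 were higher at an unadjusted p under 0.05 in edgeR. The extremes were Iigp1, an immunity-related GTPase (3.07, SE 1.39, adjusted p = 0.316), and Cd274, which encodes PD-L1 (-0.50, SE 1.03, adjusted p = 0.871). Iigp1 stood at 134 CPM in 4449 and at 1.53 and 0.219 CPM in the other KPYYF libraries, against 0.717 to 11.6 CPM in KPF libraries. Without 4601 and 4449 the median of the 12 genes still tested was -0.49. Without these libraries H2-Aa had a log2 fold change of 0.02, and the median of the 6 class II genes was -0.33.

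Interferon gamma, the signal that induces Ciita outside professional antigen-presenting cells, was not detected. Ifng had 0 counts in all 9 libraries, which allows at most 0.292 to 0.437 CPM in each. The libraries held sorted cells only, so Ifng RNA in the rest of the tumors was not measured. Of 11 tested genes of the interferon gamma receptor and signaling arm, 0 passed the adjusted threshold and 1 was lower at an unadjusted p under 0.05, the receptor chain Ifngr1 (-1.76, SE 0.48, adjusted p = 0.101, edgeR), with 19.6 to 67.0 CPM in KPYYF and 64.2 to 216 CPM in KPF libraries.

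**Figure D4:**
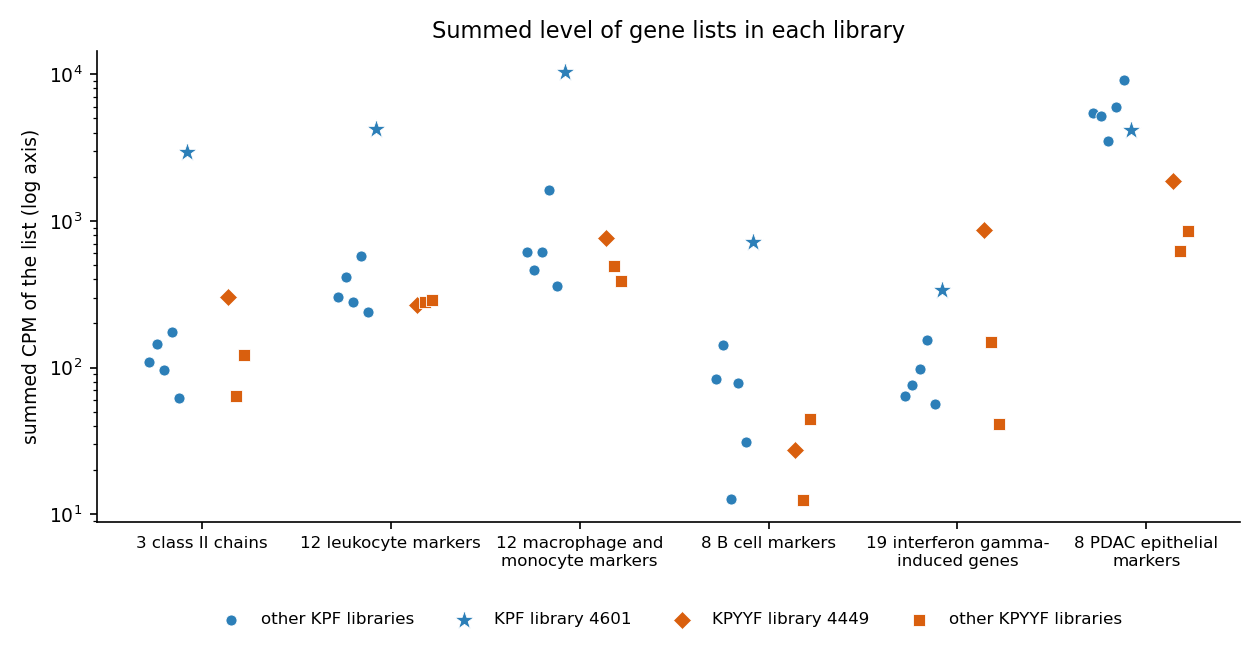
Summed CPM of 6 gene lists in each library on a log axis. KPF library 4601 (star) is highest for class II chains (2949 CPM), leukocyte, macrophage and B cell markers, KPYYF library 4449 (diamond) is highest for interferon gamma-induced genes (863 CPM), and all KPYYF libraries lie below the KPF libraries for PDAC epithelial markers.

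Other class II loci were highest in 4601, as were the 6 class II members. All 4 of H2-DMb2, H2-Oa, H2-Ob and H2-Eb2 were highest in that library, with log2 fold changes from -2.53 (H2-DMb2) to -0.93 (H2-Eb2) and no adjusted p under 0.05 in edgeR. H2-DMb2, the near-identical partner of H2-DMb1, had 87.5 CPM in 4601 and 0.475 to 7.79 CPM in the other libraries. Without 4601 the median of the 3 still tested was 0.00.

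The endosomal genes of class II turnover did not move as a block. Of 11 tested, 0 passed the adjusted threshold, and 1 was higher and 1 lower at an unadjusted p under 0.05. Of the 11, 8 were below 0, with a median of -0.73, and of -0.20 without 4601. That lower gene was Ctsh (-2.44, SE 0.57, adjusted p = 0.0631, edgeR, and -2.11 without 4601). It stood at 8.11 to 39.5 CPM in KPYYF and 56.5 to 219 CPM in KPF libraries. March1, a ubiquitin ligase that removes class II from the surface, had the lowest log2 fold change (-3.24, SE 1.52, adjusted p = 0.324, edgeR, and -1.05 without 4601), with 77.4 CPM in 4601 and at most 5.47 CPM elsewhere. Ctsl, a cathepsin that trims the invariant chain in thymic epithelium, had the highest (0.81, SE 0.31, adjusted p = 0.218), with 705 to 1286 CPM in KPYYF and 367 to 919 CPM in KPF libraries. The 8 tested NF-Y, CREB and coactivator genes that share the class II promoter with RFX ran from -0.68 (Atf1) to 1.00 (Nfya) around a median of 0.16, with 0 at an unadjusted p under 0.05.

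Among the other RFX family genes, 4 of 7 had enough counts to test. Rfx7 was the highest (1.67, SE 0.49, adjusted p = 0.120, edgeR), with 14.6 to 39.5 CPM in KPYYF and 5.81 to 13.0 CPM in KPF libraries and no overlap, and it too was among the factors the study picked on these libraries. Rfx2 was the lowest (-1.64, SE 1.32, adjusted p = 0.595). Rfx1 and Rfx3 lay between them. Rfx5 and Rfx7 both stood highest in 4449 and lowest of the KPYYF libraries in 4938. The 6 costimulation and maturation genes of antigen-presenting cells were all highest in 4601, from -5.85 (Cd86, SE 1.98, adjusted p = 0.170, edgeR) to -0.82 (Icosl). Their median was -2.74, and -2.02 without 4601 for the 5 still tested, where Cd86 was at -3.78 and Icosl at 0.66. Cd86 had 3, 1 and 2 counts in KPYYF libraries 4449, 4891 and 4938, so the size of its fold change is uncertain.

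Of 8 fibroblast markers, 0 were highest in 4601. The 8 fibroblast markers summed to 519 CPM in 4601, against 403 to 5424 CPM in the other KPF and 1160 to 3236 CPM in the KPYYF libraries. Their log2 fold changes ran from -1.71 (Col1a2) to 2.90 (Pdgfra), with 0 of 8 past the adjusted threshold and 2 higher at an unadjusted p under 0.05. Of 5 tested endothelial markers, 0 passed the adjusted threshold and 2 were lower at an unadjusted p under 0.05, from -6.05 (Vwf) to 0.06 (Cdh5). Vwf had 0, 0 and 2 counts in KPYYF libraries 4449, 4891 and 4938, so the size of its fold change is uncertain. The 8 PDAC epithelial markers had a median of -2.56, and of -2.62 without 4601, from -4.11 (Muc1, adjusted p = 0.0422, edgeR) through Cdh1 (-2.92, adjusted p = 0.0351) and Krt18 (-2.49, adjusted p = 0.0141) to -0.56 (Sox9).

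The genes whose log2 CPM followed H2-Ab1 most closely over the 9 libraries, among 14104 ranked, were Clec7a (r = 0.986), which encodes the myeloid lectin Dectin-1, Ubl5 (0.979), Cd74 (0.967), Ctsc (0.965), which encodes a lysosomal protease, and H2-Aa (0.962). Clec7a reached 391 CPM in 4601 and 10.2 to 37.3 CPM in KPYYF libraries. For Rfx5 the closest were Zfp930 (r = 0.978), Drg2 (0.973), Tmem231 (0.958), Cldn1 (0.955) and Gm12602 (0.953). None of these 5 had an adjusted p under 0.05 in edgeR, and Zfp930, Cldn1 and Gm12602 averaged under 3 CPM over the libraries. These r values describe 9 libraries that share the same 2 groups, and no test was run on them.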

How the data were processed

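RNA was extracted from FACS-sorted PDAC cells of 6 KPF and 3 KPYYF tumors and made into QuantSeq 3′ Fwd libraries. As deposited by the authors, each file holds raw counts per Ensembl gene of 1 library. The submitters' processing notes name STAR, HTSeq and mm10, and versions and the strand setting were not given in the sources used here. The study's methods describe a BeadChip, but the values are whole-number counts, so a count test was used.

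Of 47643 genes, 47224 were matched to symbols in GENCODE M21 (GRCm38). The 14105 genes with at least 100 counts over the 9 libraries were compared with edgeR 4.0.16 (quasi-likelihood test, robust, TMM, no covariates, R 4.3.3), with Benjamini-Hochberg adjustment over all genes and a threshold of 0.05. CPM were scaled by TMM. The SE of a log2 fold change was taken from the F statistic. Exact permutation tests used log2 CPM (prior count 2) over all 84 ways of dividing 9 libraries into 6 and 3. No set test was run. Nothing says that all libraries came from separate mice, and p values measure the spread between libraries. The scripts were tested on simulated data.

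The members and gene lists were chosen with earlier results of these data known. Named were all members, Ptprc, Yap1, in each list the genes with an adjusted p under 0.05 and otherwise those with the largest and smallest fold change, and the 5 genes that followed H2-Ab1 or Rfx5 most closely. Cd53, Coro1a, Ctsh, Ifng, Dexi, Brd2, B230398E01Rik, Clec9a and Siglech were named after their values were seen. Alternatives were the DESeq2 1.42.0 Wald test, RLE and upper quartile normalization, no filter, filterByExpr, limma-voom (limma 3.58.1) with sample quality weights, 4504h and 4504s summed, each library left out, Ptprc as a covariate and a prior count of 0.5. The 12-marker covariate, the fits without 4601 and 4449 together, the list values without 4601 and the ratios to leukocyte genes without 4601 were added after seeing the data. Promoters were read from a RefSeq table (GRCm38.p6). The Cut&Tag data were not analysed here. Some alleles and single genes of the lists are not reported here.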

Additional observations from a re-analysis of the deposited data

Results flagged for a closer look

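In KPF library 4601, 8 values lay farther from the other 5 KPF libraries than Dixon's 95% limit for 6 samples allows. They were H2-Aa at 1601 CPM, H2-Ab1 at 856 CPM, H2-Eb1 at 492 CPM, Cd74 at 739 CPM, H2-DMa at 122 CPM, H2-DMb1 at 566 CPM, Ciita at 44.6 CPM and Ptprc at 399.5 CPM. The gap to the next library was 0.812 (Ptprc) to 0.971 (H2-Aa) of the whole range. In KPF library 4504h, Rfxap stood out at 35.9 CPM in the same way, with a gap of 0.661 of the range. Chance flags about 1 in 20 groups, and 9 of 11 genes looked at were flagged, 8 of them through the same library. In 4601 all 12 pan-leukocyte and all 12 macrophage and monocyte markers were the highest of the 9 libraries, and their part in the class II values was not tested. The KPYYF group, with 3 libraries, was too small for this rule.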

How the results depend on the processing

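Of 189 log2 fold changes of members and Ptprc recomputed under 19 alternatives, 163 were counted as keeping direction and side of the threshold. Another 25 turned direction and 1 passed the threshold, Rfx5 with DESeq2. The 163 include the 6 class II genes and Ciita with DESeq2, which gave them no adjusted p, so only their direction could be compared there. The count of members with an adjusted p under 0.05 stayed at 0 in both directions, other than that 1 with DESeq2. By the rule of the methods, 1 member was higher in every alternative except the leukocyte marker covariate, where 5 were. Library 4601 is the far extreme of that covariate. The share of all genes passing this rule was not worked out for the alternatives, so these counts have no background beside them. The 1 lower member, H2-DMa, became 0 with no filter, limma-voom, the Ptprc covariate, the leukocyte marker covariate and without 4601 and 4449. The count was also 0 with DESeq2, but DESeq2 gave H2-DMa no adjusted p, with a log2 fold change of -2.59. That 0 therefore does not show that H2-DMa failed the rule. When single libraries were left out the count ran from 0 to 1 (0 without KPF library 4601 or any KPYYF library).

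With Ptprc as a covariate the log2 fold changes turned to 0.85 (H2-Aa), 0.32 (H2-Eb1), 0.42 (Cd74), 1.37 (Ciita) and -0.057 (Rfxap). With the leukocyte marker covariate they turned to 1.56 (H2-Aa), 0.77 (H2-Ab1), 1.15 (H2-Eb1), 1.15 (Cd74), 0.96 (H2-DMb1), 3.89 (Ciita) and -0.064 (Rfxap). Without 4601 and 4449 they turned to 0.017 (H2-Aa) and -0.29 (Rfxap), and Ciita was no longer tested. With limma-voom Rfxap was -0.20. When single libraries were left out, log2 fold changes ran from -2.61 to 0.80 (H2-Aa), -3.02 to 0.086 (H2-Ab1), -2.35 to 0.27 (H2-Eb1), -2.86 to 0.33 (Cd74), -2.98 to 1.42 (Ciita) and -0.27 to 0.29 (Rfxap), each upper end of the first 5 being the fit without 4601. The differences of mean log2 CPM also turned for H2-Aa, H2-Eb1, Cd74, H2-DMb1, Ciita and Rfxap, when single libraries were left out, with ranges of -0.83 to 0.60, -1.01 to 0.24, -1.10 to 0.24, -1.12 to 0.060, -0.42 to 1.61 and -0.25 to 0.35 in that order. The permutation p of Rfxank passed 0.05 with all libraries and without KPF library 4515 alone, and missed it with a prior count of 0.5, with 4504h and 4504s summed and without each of the other 8 libraries. Per 12 leukocyte markers in place of Ptprc, the differences turned to 0.36 (H2-Ab1), 0.80 (H2-Eb1), 0.71 (Cd74) and 0.47 (H2-DMb1), and per Ptprc without 4601 to 0.34 (H2-Eb1), 0.34 (Cd74) and 0.16 (H2-DMb1). Depth limited Ciita, with 1 or 2 counts in 5 libraries. The causes of these turns were not tested. No paired analysis was possible because the labels give no replicate numbers and no mouse number shared between the groups.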
